A study of Rattus norvegicus with 10 samples.

Results

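The genes described here recycle and ready synaptic vesicles in nerve terminals: Synj1, Cadps, Dnm1, Dnm3, Amph, Sh3gl2, Unc13a, Rims1 and Bsn. They are 9 of 10 genes named in advance and were matched by exact symbol in a table of 13686 gene symbols from rat hippocampus. Cadps2, the tenth gene, was not matched there and was not analysed here. The set was chosen because Synj1 and Cadps set libraries numbered 4 and 5 apart from libraries 1 to 3 in both groups. The members were thus chosen by CPM values, levels scaled to the library total, of these same libraries, and that separation is given only as a description, with no test.

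The hippocampi came from male TgF344-AD rats, a line that develops amyloid and tau changes and carries mutant human amyloid precursor protein and presenilin transgenes under the mouse prion promoter. One group of 5 rats received chow with BT-11, an oral compound that binds the protein LANCL2, from 5 months of age for 6 months. The other 5 transgenic rats ate rodent chow and are called untreated. All were 11 months old when the left hippocampus was taken after ketamine and xylazine, and no rats without the transgenes were analysed here. Libraries held 8984439 to 11301545 counts, and each is named by its group and the number in its label. Nothing in the labels says that libraries of the same number share a batch. The study describes 5 rats in each group, and tests measure the spread between these libraries.

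After a synaptic vesicle fuses, its membrane is retrieved by a clathrin coat, bent by proteins such as amphiphysin and endophilin, cut free by dynamin and stripped of its coat with the help of synaptojanin, which removes phosphates from membrane phosphoinositides. Before the next round, the vesicle is tethered at the active zone by scaffolds such as Bassoon and RIM and made ready for fusion by Munc13 proteins. CAPS proteins, encoded by Cadps and Cadps2, also act in priming, including that of dense-core vesicles, which carry neuropeptides. The hippocampus, rich in glutamatergic terminals, uses all of these steps.

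The promoters of Synj1 and Cadps are shown because the set was chosen by their levels. That of Sh3gl2 is shown because it holds the match to a cyclic AMP response element. Each line is the 250 bases before the annotated start in RefSeq, build GRCr8, read 5′ to 3′ on the strand of the gene. The windows are chr11:43755527-43755776, minus strand for Synj1, chr15:14720476-14720725, plus strand for Cadps and chr5:104699020-104699269, plus strand for Sh3gl2. Capitals mark matches on either strand to TGACGTCA, the cyclic AMP response element, GGGCGG, the GC box, CACGTG, an E-box, or TATAAA, the TATA box.
Synj1: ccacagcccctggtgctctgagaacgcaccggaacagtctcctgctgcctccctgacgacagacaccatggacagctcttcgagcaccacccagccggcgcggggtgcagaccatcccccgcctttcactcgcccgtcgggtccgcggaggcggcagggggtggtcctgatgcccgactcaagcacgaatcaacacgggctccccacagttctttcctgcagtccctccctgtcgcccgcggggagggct
Cadps: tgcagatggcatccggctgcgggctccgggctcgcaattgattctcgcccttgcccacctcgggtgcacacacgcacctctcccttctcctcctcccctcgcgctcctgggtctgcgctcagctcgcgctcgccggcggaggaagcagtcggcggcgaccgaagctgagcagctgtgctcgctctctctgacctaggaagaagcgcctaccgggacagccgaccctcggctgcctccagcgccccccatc
Sh3gl2: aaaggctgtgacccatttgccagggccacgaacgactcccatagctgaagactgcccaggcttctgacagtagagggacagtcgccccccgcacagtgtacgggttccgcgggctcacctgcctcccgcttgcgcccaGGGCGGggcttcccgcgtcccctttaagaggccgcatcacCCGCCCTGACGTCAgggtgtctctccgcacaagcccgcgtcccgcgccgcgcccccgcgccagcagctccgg

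None of the 4 motifs occurs in the Synj1 or Cadps window. In Sh3gl2 the cyclic AMP response element starts 66 bases before the annotated start and directly follows a GC box read on the other strand, so that both appear as 1 run of capitals. The other GC box of this promoter starts 112 bases before the annotated start. Of 33469 promoters in the table, 1.59% hold TGACGTCA, 30.5% hold GGGCGG, 5.59% hold CACGTG and 12.9% hold TATAAA. All 10 named genes, Cadps2 included, matched a promoter, of which 1 holds TGACGTCA, 6 hold GGGCGG, 1 holds CACGTG and 0 hold TATAAA. The GC content of these 10 windows ran from 58.8% to 77.2% with a median of 68.2%, beside a median of 51.2% over all promoters. A match describes letters only, and the start used in these hippocampi was not examined.

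Synj1 encodes synaptojanin, the phosphoinositide phosphatase of coat removal (build rn6, chromosome 11, 31105784 to 31181570 as listed in the deposited table, minus strand). In BT-11 rats it was at 361, 308, 341, 478 and 450 CPM in replicates 1 to 5, and in untreated rats at 361, 336, 368, 520 and 517 CPM. Replicates 4 and 5 were the highest of both groups, and the groups overlapped. The mean of replicates 4 and 5 was 1.38 times that of replicates 1 to 3 in BT-11 rats and 1.46 times in untreated rats.

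Cadps encodes CAPS1, a vesicle priming factor (chromosome 15, 15275489 to 15667780, plus strand). Its level was 108, 101, 105, 158 and 150 CPM in BT-11 replicates 1 to 5, against 110, 111, 118, 147 and 174 CPM in untreated replicates 1 to 5. The same libraries were high as for Synj1, with ratios of 1.47 in BT-11 and 1.42 in untreated rats. Unc13a was the remaining member with replicates 4 and 5 above 1 to 3 in both groups.

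The order of libraries was thus shared by 3 of the 9 members, and 7.65% of the 11771 genes tested had it. In the opposite order, with replicates 4 and 5 below 1 to 3 in both groups, were 5.85% of genes and no member. In untreated rats alone, replicates 4 and 5 lay above 1 to 3 for Synj1, Cadps, Dnm3, Amph, Unc13a, Rims1 and Bsn, beside 22.7% of all genes. In BT-11 rats alone they did so for Synj1, Cadps, Sh3gl2 and Unc13a, beside 15.9% of all genes. Dnm1 overlapped between the sets of replicates in both groups. Just inside this order was Unc13a, where untreated replicate 5 had 182 CPM, beside the 172 CPM of replicate 3. Just outside it were Bsn, with 672 CPM in BT-11 replicate 4 and 673 CPM in BT-11 replicate 3, and Rims1, with 266 CPM in BT-11 replicate 5 and 269 CPM in BT-11 replicate 3. These values chose the members, so that nothing is read from the counts.

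**Figure D1:**
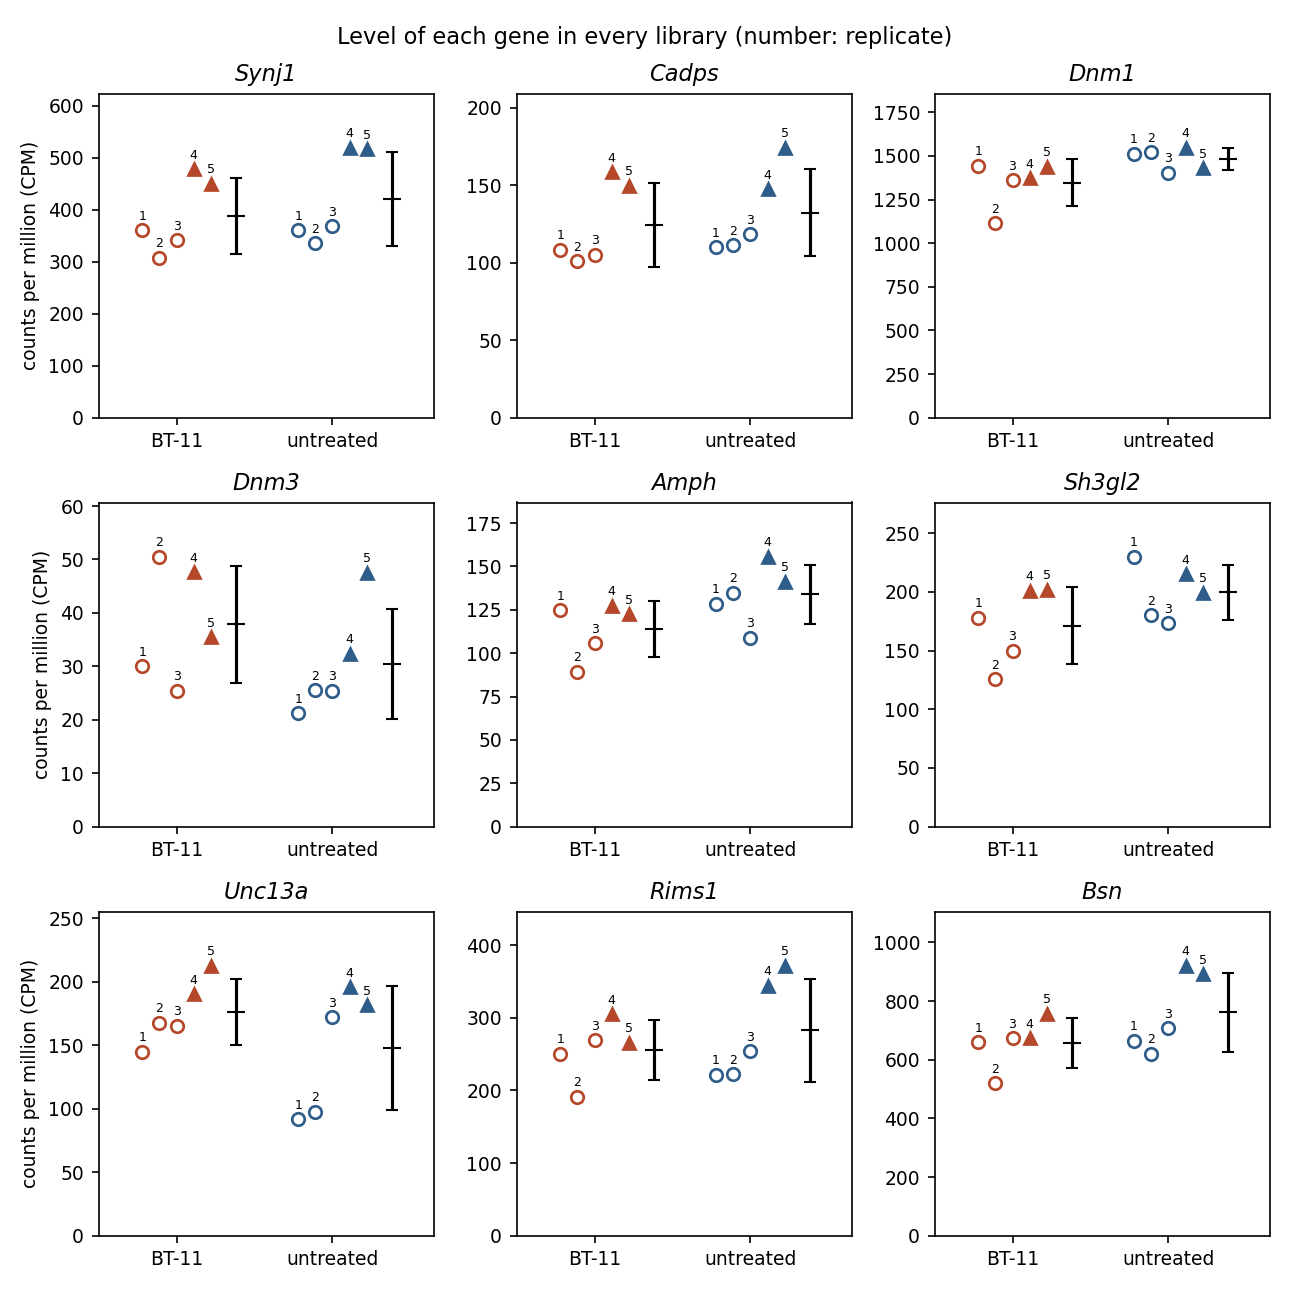
CPM of the 9 genes (y axis, from 0) in every library, with BT-11 left of untreated and the replicate number above each point. Filled triangles are replicates 4 and 5, open circles replicates 1 to 3, and the black bar is the mean ± SD of 5 libraries. Synj1 and Cadps show the triangles above the circles in both groups, Unc13a shows untreated replicates 1 and 2 lowest, and Dnm1 shows BT-11 replicate 2 lowest.

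Transcript length went with the same split of libraries, and its part in it was not tested. Genes were divided by the transcript length in the deposited table into 4 classes of about equal size. In the longest class, of 3363 bases or more, 15.6% had replicates 4 and 5 above 1 to 3 in both groups and 0.782% had them below. In the shortest class, up to 1497 bases, 3.09% had them above and 14.5% below. Synj1 (5878 bases), Cadps (3490 bases), Unc13a (4858 bases), Rims1 (5651 bases) and Bsn (15951 bases) belong to the longest class. Sh3gl2 (1491 bases) belongs to the shortest. Its BT-11 replicates 4 and 5 lay above 1 to 3, and its untreated replicates overlapped. On the log2 scale, replicates 4 and 5 minus 1 to 3 had a median in the longest class of 0.06 in BT-11 and 0.16 in untreated rats. Synj1 had 0.46 and 0.53 and Cadps 0.55 and 0.49. Both genes were chosen for this split, so nothing is read from their values beside the medians.

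Summed over 12 pan-neuronal markers, BT-11 replicates 4 and 5 held 10140 to 10520 CPM and BT-11 replicates 1 to 3 held 8454 to 10220 CPM, while untreated replicates 4 and 5 held 10720 to 11440 CPM and untreated replicates 1 to 3 held 10020 to 12060 CPM. The 10 oligodendrocyte markers together reached 13590 to 14690 CPM in BT-11 replicates 4 and 5 and 8595 to 15460 CPM in BT-11 replicates 1 to 3. In untreated rats the same markers were at 8192 to 9191 CPM in replicates 4 and 5, below the 11610 to 16380 CPM of replicates 1 to 3. Endothelial markers, 7 genes, summed to 279 to 285 CPM in BT-11 replicates 4 and 5, below the 321 to 366 CPM of BT-11 replicates 1 to 3, but to 354 to 355 CPM in untreated replicates 4 and 5, above the 304 to 337 CPM of untreated replicates 1 to 3. CA3 pyramidal markers, 6 genes, were at 634 to 702 CPM in BT-11 replicates 4 and 5, above the 462 to 548 CPM of BT-11 replicates 1 to 3, and overlapped in untreated rats. Of the 14 lists of cell markers summed, none had replicates 4 and 5 on the same side of 1 to 3 in both groups, the order by which Synj1 and Cadps were chosen. In bulk tissue, fewer cells of a type and less RNA per cell cannot be told apart.

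**Figure D2:**
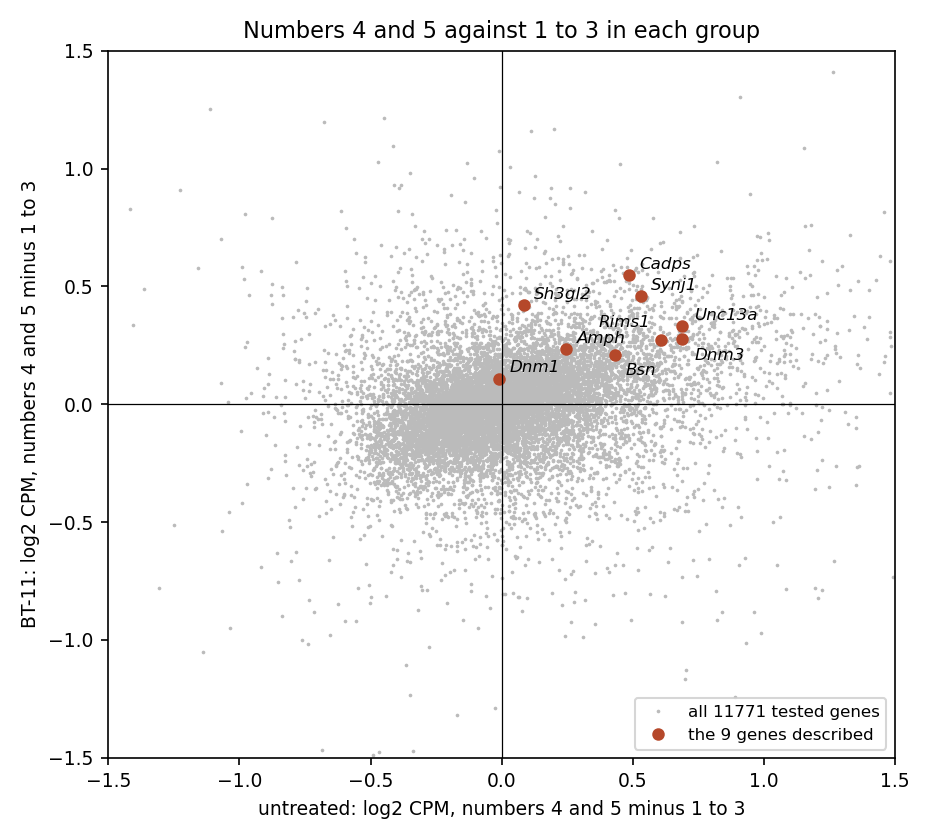
Difference in mean log2 CPM between replicates 4 and 5 and replicates 1 to 3, in BT-11 rats (y axis) and in untreated rats (x axis). Grey points are the 11771 tested genes, of which 29 fall outside the range shown, and red points are the 9 genes described. Synj1 lies at 0.46 in BT-11 and 0.53 in untreated rats, Cadps at 0.55 and 0.49, and Dnm1 at 0.11 and -0.01.

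Corrected for transcript length, Dnm1 was by far the most abundant member and Dnm3 the least. In CPM per 1000 bases, Dnm1 was at 421 ± 42.4 in BT-11 and 463 ± 19.8 in untreated rats (SD, n = 5 each), while the highest library of any other member was at 154 (Sh3gl2 in an untreated rat). Sh3gl2 followed at 115 ± 22.2 in BT-11 and 134 ± 15.8 in untreated rats on the same scale. Synj1 was at 65.9 ± 12.4 in BT-11 and 71.5 ± 15.3 in untreated rats, and Amph at 55.8 ± 7.91 and 65.6 ± 8.42. Rims1, Bsn, Unc13a and Cadps were close to each other at 45.3, 41.1, 36.3 and 35.7 CPM per 1000 bases in BT-11 rats. Their ranges overlapped, as did those of Synj1 and Amph, and ran from 28.9 to 53.9 over all BT-11 libraries of these 4 genes. Dnm3 was at 11.7 ± 3.37 in BT-11 and 9.39 ± 3.19 in untreated rats, below every library of every other member.

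In the comparison that the study was designed for, BT-11 against untreated rats, 7 of the 9 members had a lower mean with BT-11 and Dnm3 and Unc13a a higher one, but none passed the test. edgeR's quasi-likelihood test with Benjamini-Hochberg adjustment over 11771 genes called 0 members at an adjusted p of 0.05, as it called 0% of all genes. At an unadjusted p under 0.05 there were also 0 members, beside 9.09% of all genes. DESeq2 called 0 members and 40 genes, and edgeR without untreated replicate 3 called 0 members and 62 genes. The median log2 fold change of the 9 members was -0.15, beside -0.01 over all genes, of which 51.8% had a lower mean with BT-11. In no member did the 5 BT-11 libraries lie apart from the 5 untreated ones, as they did for 1.12% of all genes. The marker sums of all 14 lists overlapped between the groups, and their part in these differences was not tested. With BT-11, 11 of 12 pan-neuronal markers and 9 of 10 astrocyte markers had a lower mean, while 10 of 10 oligodendrocyte and 7 of 7 CA1 pyramidal markers had a higher one. Choroid plexus markers, 10 genes of which 6 were tested, summed to 9.48 to 32.7 CPM in BT-11 rats and 11.8 to 3830 CPM in untreated rats. Untreated replicates 2 and 5 held 3830 and 747.7 CPM of them, and the other untreated libraries 11.8 to 71.2 CPM. None of these markers passed the adjusted p. The 7 CA1 markers, which mark hippocampal pyramidal cells, summed to 506.5 to 1303 CPM in BT-11 and 491.7 to 827.5 CPM in untreated rats, so that the labelled tissue was present in each library.

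Among the endocytic members, Amph came closest to the threshold. Amph encodes amphiphysin, which binds dynamin and curved membrane (chromosome 17, 48304324 to 48562839, minus strand). It was at 125, 89.4, 106, 127 and 122 CPM in BT-11 replicates 1 to 5 and at 129, 135, 109, 156 and 141 CPM in untreated replicates 1 to 5. Only untreated replicate 3 fell among the BT-11 values. The log2 fold change was -0.24 ± 0.113 (SE), with a 95% interval from -0.49 to 0.00 and an adjusted p of 0.552 in edgeR.

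Sh3gl2 encodes endophilin A1, which recruits synaptojanin to the vesicle neck (chromosome 5, 103479767 to 103654248, plus strand). Its values were 178, 126, 150, 201 and 202 CPM in BT-11 rats and 230, 180, 174, 215 and 200 CPM in untreated rats, so that the groups overlapped. Its log2 fold change was -0.23 ± 0.134 (SE), with an interval from -0.52 to 0.06. Synj1 had -0.13 ± 0.153 (SE), with an interval from -0.46 to 0.20. For both genes BT-11 replicate 2 was the lowest of all 10 libraries.

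The dynamins went in opposite directions without passing the test. Dnm1 encodes the neuronal dynamin that cuts vesicles from the membrane (chromosome 3, 11338081 to 11382044, minus strand). It was at 1445, 1113, 1360, 1373 and 1439 CPM in BT-11 replicates 1 to 5, against 1513, 1522, 1404, 1548 and 1428 CPM in untreated replicates 1 to 5. BT-11 replicates 1 and 5 lay within the untreated range, the other 3 below it and BT-11 replicate 2 lowest, and the log2 fold change was -0.15 ± 0.0823 (SE; 95% interval from -0.33 to 0.03). Without BT-11 replicate 2 it was -0.08. Dnm3 (chromosome 13, 79910886 to 80379930, minus strand), a dynamin found in brain and testis, was at 30.1, 50.6, 25.5, 47.6 and 35.5 CPM in BT-11 rats and 21.3, 25.5, 25.5, 32.4 and 47.5 CPM in untreated rats. Here BT-11 replicate 2 was the highest of all libraries, and the log2 fold change was 0.29 ± 0.225 (SE; 95% interval from -0.20 to 0.78). It was 0.18 without BT-11 replicate 2 and 0.52 without untreated replicate 5.

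Among the priming and active zone genes, Bsn encodes Bassoon, a very large scaffold of the active zone (chromosome 8, 116873721 to 116965397, minus strand). Its level was 660, 521, 673, 672 and 756 CPM in BT-11 replicates 1 to 5 and 665, 621, 707, 921 and 891 CPM in untreated replicates 1 to 5. Untreated replicates 4 and 5 stood above every BT-11 library, while replicates 1 to 3 overlapped between the groups. The log2 fold change was -0.22 ± 0.127 (SE), with an interval from -0.50 to 0.05. Taken alone, replicates 4 and 5 (2 rats against 2) gave -0.34 with an adjusted p of 0.0479 in edgeR, where 4.02% of 11919 genes were called. Replicates 1 to 3 gave -0.11 with an adjusted p of 0.757. By chi-square of counts per degree of freedom, replicates 4 and 5 were the pair most alike in each group (4.38 in BT-11, 6.9 in untreated rats). These sets of replicates are also those by which Synj1 and Cadps were chosen, so nothing is read from the call of Bsn. The difference between the sets was not tested.

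Rims1 encodes RIM1, which links vesicles, Munc13 and calcium channels (chromosome 9, 28442234 to 29003443, minus strand). It was at 250, 191, 269, 305 and 266 CPM in BT-11 rats and 222, 222, 254, 344 and 372 CPM in untreated rats. The groups overlapped, with a log2 fold change of -0.15 ± 0.162 (SE; 95% interval from -0.50 to 0.20) that was -0.33 in replicates 4 and 5 and 0.02 in replicates 1 to 3. Cadps had -0.10 ± 0.159 (SE; 95% interval from -0.45 to 0.25), and its value was 0.02 without untreated replicate 5.

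Unc13a, the gene of Munc13-1 that opens syntaxin for fusion (chromosome 16, 20056398 to 20103946, minus strand), had its lowest values in 2 untreated libraries. It was at 145, 168, 165, 190 and 213 CPM in BT-11 replicates 1 to 5, against 91.9, 97.6, 172, 195 and 182 CPM in untreated replicates 1 to 5. Untreated replicates 1 and 2 lay below every other library, whereas untreated replicates 3 to 5 lay within the BT-11 range. The log2 fold change was 0.24 ± 0.199 (SE; 95% interval from -0.19 to 0.68, adjusted p of 0.739 in edgeR). With both of these libraries left out, a setting chosen after the values were seen, it was -0.05. The values in these libraries rest on 843 and 887 counts.

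**Figure D3:**
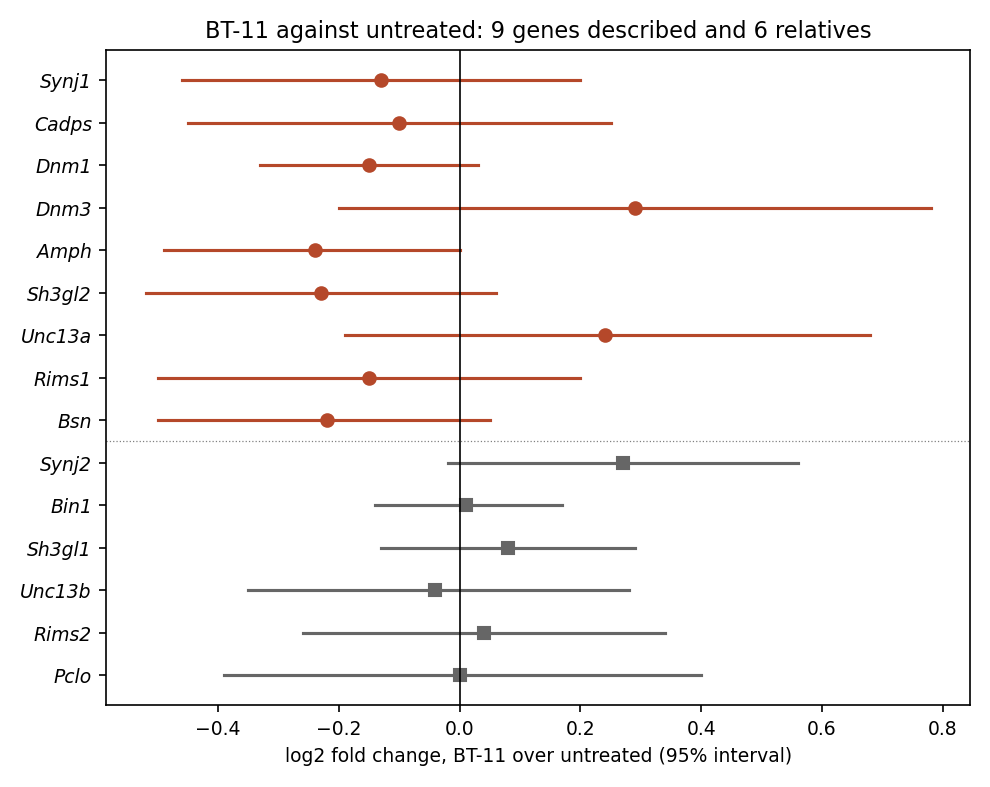
Log2 fold change of BT-11 over untreated rats (x axis) with its 95% interval for the 9 genes described (red circles) and 6 relatives (grey squares), from edgeR. The 9 intervals include or touch 0, and Amph, with an upper bound of 0.00, comes closest to leaving it out.

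BT-11 replicate 2 was often the lowest library, though its gap to the next was large for Dnm1 alone by the limit used for 5 samples. It was the lowest of all 10 libraries for Synj1, Cadps, Dnm1, Amph, Sh3gl2, Rims1 and Bsn, that is 7 of 9 members, where it was the lowest for 11.3% of all genes. It was the highest for Dnm3, as for 16.6% of all genes, and neither for Unc13a. Log2 CPM in this library was below the mean of the gene over all libraries by 0.54 for Sh3gl2 at the most and 0.32 for Cadps at the least among those 7 genes. Without this library the log2 fold changes were -0.05 for Synj1, -0.03 for Cadps, -0.16 for Amph, -0.14 for Sh3gl2, -0.06 for Rims1 and -0.15 for Bsn.

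The same library held 8454 CPM of the 12 pan-neuronal markers, the lowest sum, beside 9718 to 10520 CPM in BT-11 replicates 1, 3, 4 and 5 and 10020 to 12060 CPM in untreated ones. Thalamic markers, 6 genes, reached 251.7 CPM there, whereas the remaining BT-11 libraries held 52.3 to 148.6 CPM and untreated ones 58.2 to 80.8 CPM. The 7 CA1 markers held 506.5 CPM there, 894.2 to 1303 CPM in other BT-11 libraries and 491.7 to 827.5 CPM in untreated ones. Striatal markers, 9 genes, reached 329 CPM there and 176 to 225 CPM in the other 9 libraries. The sum of 10 oligodendrocyte markers, 15460 CPM, was second to untreated replicate 1 with 16380 CPM. No listed marker found in the table was at 0 in every library, and the part of these markers in the levels above was not tested.

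**Figure D4:**
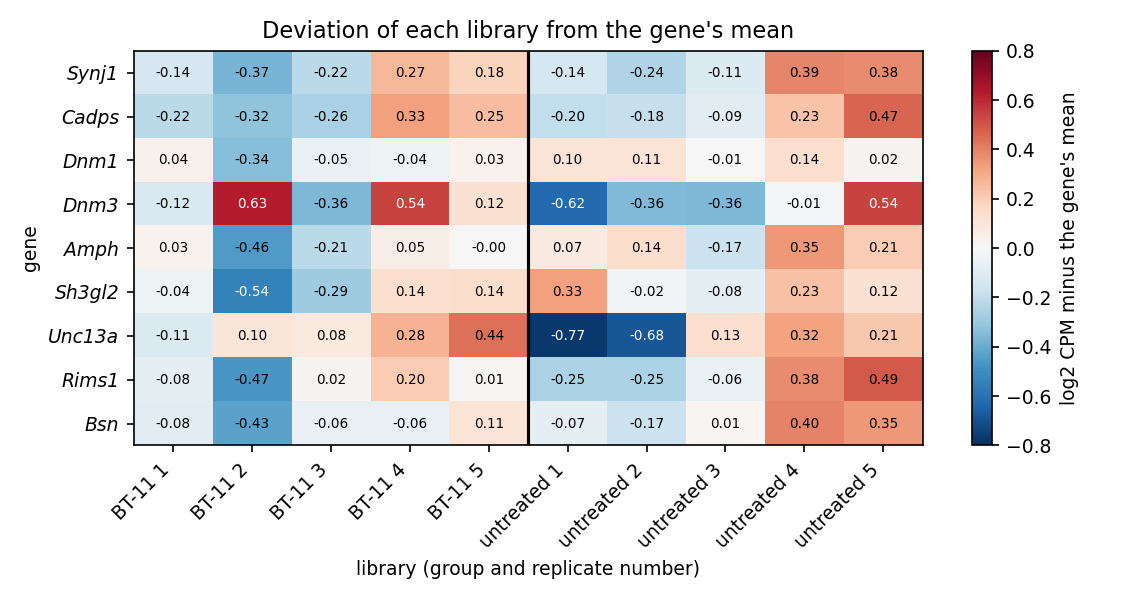
Log2 CPM of each library minus the mean of the gene over the 10 libraries, with BT-11 libraries on the left and untreated libraries on the right. Red is above and blue below the mean. The column of BT-11 replicate 2 is blue for 7 of 9 genes and red for Dnm3 (0.63), untreated replicates 1 and 2 are at -0.77 and -0.68 for Unc13a, and untreated replicates 4 and 5 are above the mean for most genes.

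The ratio of a member to a close relative within a library leaves out shifts that both genes share, and 7 such ratios were formed. For synaptojanin the groups did not overlap. The log2 ratio of Synj1 to Synj2, the gene of a synaptojanin found in many tissues, was 2.41, 2.50, 2.22, 2.39 and 2.57 in BT-11 replicates 1 to 5, against 2.66, 2.80, 2.69, 3.01 and 2.86 in untreated replicates 1 to 5. Its mean was 2.42 ± 0.131 in BT-11 and 2.80 ± 0.141 in untreated rats (SD, n = 5 each), and the other 6 ratios overlapped. When Synj1 was divided by each of 11764 other genes in turn, the groups failed to overlap for 0.459% of them. The ratio was chosen as 1 of several and was given no test.

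Both genes contributed to that ratio. Synj2 was at 67.8, 54.4, 73.1, 91.2 and 75.7 CPM in BT-11 replicates 1 to 5, against 57.2, 48.2, 57.1, 64.7 and 71.1 CPM in untreated replicates 1 to 5. Its own log2 fold change was 0.27 ± 0.133 (SE; 95% interval from -0.02 to 0.56, adjusted p of 0.586 in edgeR), beside the -0.13 of Synj1. The table lists Synj1 on 1 line and Synj2 on 3 lines that were summed, and the separation needed that sum. With each Synj2 line alone, tried after the values were seen, the difference in log2 ratio between BT-11 and untreated rats was -0.47, -0.09 and -0.41, and the groups overlapped each time.

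The other ratios varied between libraries as their members did. Dnm1 over Dnm3 had a mean log2 ratio of 5.20 ± 0.532 in BT-11 and 5.66 ± 0.471 in untreated rats (SD, n = 5 each), with 4.46 in BT-11 replicate 2. Unc13a over Unc13b, a second Munc13 gene, was 2.42 to 2.99 in BT-11 rats, against 1.92 and 1.84 in untreated replicates 1 and 2 and 2.44 to 2.62 in untreated replicates 3 to 5. Unc13b was at 24.3 and 27.2 CPM in the same 2 untreated libraries, 27.9 CPM in untreated replicate 3, and 35.4 and 33.4 CPM in untreated replicates 4 and 5. Among untreated libraries Unc13b was thus lowest in the same 2, by less than Unc13a. Untreated replicates 2 and 3 were close for Unc13b, at 247 and 261 counts. In BT-11 libraries Unc13b was at 21.1 to 36.4 CPM, with BT-11 replicate 2 the lowest of all 10 libraries. Bsn over Pclo, the gene of the related scaffold Piccolo, had 0.87 ± 0.146 in BT-11 and 1.11 ± 0.169 in untreated rats. Rims1 over Rims2 had 1.27 ± 0.150 in BT-11 and 1.47 ± 0.0715 in untreated rats, where BT-11 replicate 3 at 1.39 lay above the lowest untreated library at 1.38. Amph over Bin1, a widely expressed amphiphysin relative, and Sh3gl2 over Sh3gl1, a second endophilin gene, differed by -0.26 and -0.34 between the BT-11 and untreated means, with overlap.

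**Figure D5:**
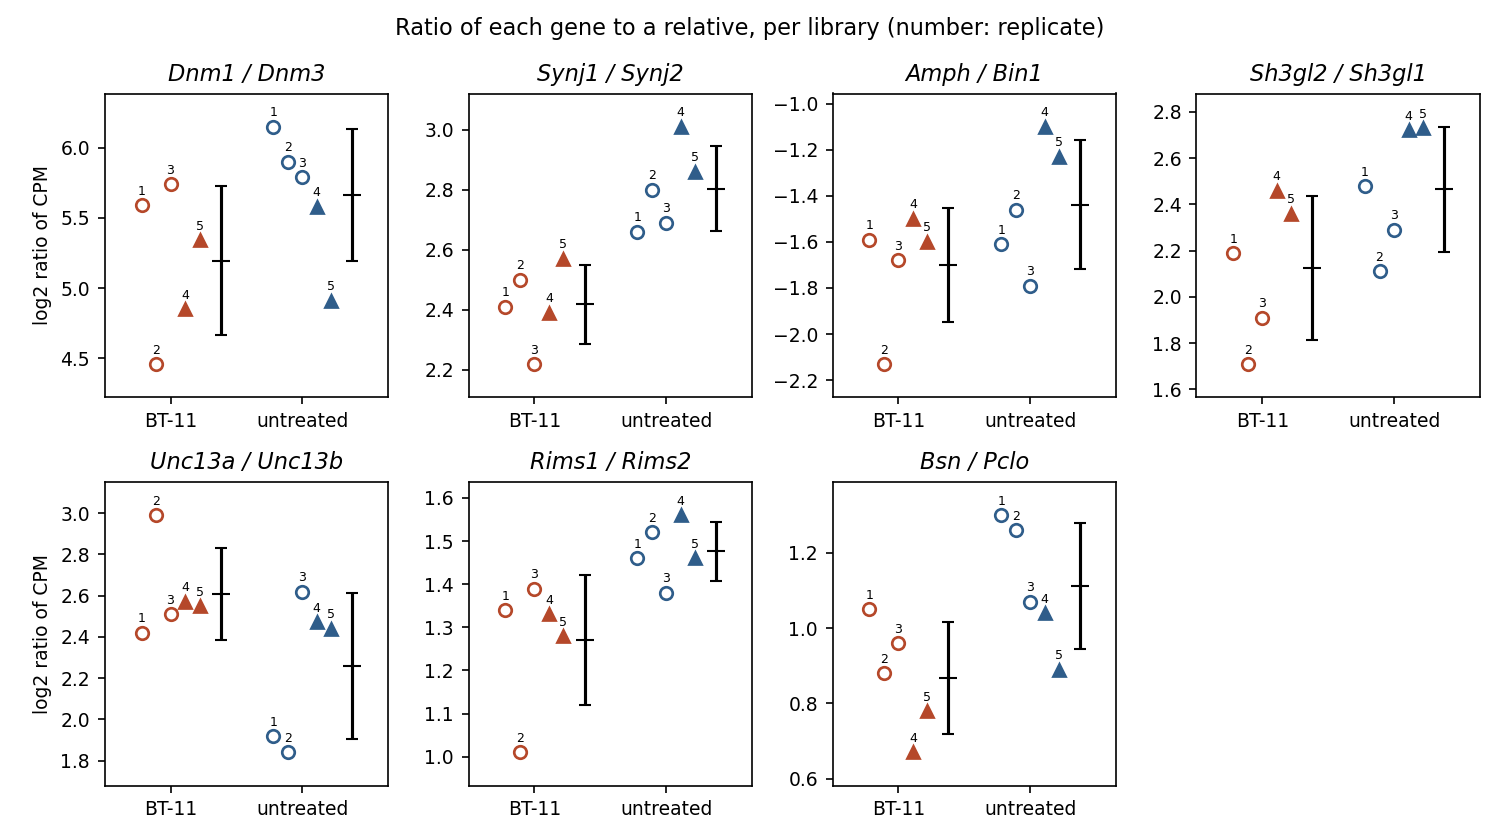
Log2 ratio of CPM of each gene to a relative in every library (y axis, which does not start at 0), with BT-11 left of untreated. Filled triangles are replicates 4 and 5, open circles replicates 1 to 3, and bars are the mean ± SD of 5 libraries. Synj1 over Synj2 is the ratio in which the groups are apart, from 2.22 to 2.57 in BT-11 and from 2.66 to 3.01 in untreated rats, with the 3 lines of Synj2 summed.

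Relatives of the members also differed in how they followed the split of replicates. Pclo, Rims2, Unc13b and Synj2 had replicates 4 and 5 above 1 to 3 in both groups. Pclo was at 422 to 440 CPM in BT-11 replicates 4 and 5 and 283 to 347 CPM in BT-11 replicates 1 to 3, while untreated replicates 4 and 5 held 448 to 481 CPM and untreated replicates 1 to 3 held 260 to 338 CPM. Bin1 and Sh3gl1 did not share this order. Bin1 was at 331 to 333 CPM in untreated replicates 4 and 5, below the 372 to 393 CPM of untreated replicates 1 to 3, and its BT-11 replicates overlapped. Sh3gl1 had 30.2 to 32.6 CPM in untreated replicates 4 and 5 and 35.6 to 41.8 CPM in untreated replicates 1 to 3.

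The genes most like Synj1 and Cadps over the 10 libraries were found by the root-mean-square difference of log2 CPM centred per gene, among 8606 other genes with a mean of at least 10 CPM. Among the closest to Synj1 was the postsynaptic adhesion gene Nlgn1, at 0.061. Syt1, the calcium sensor of vesicle release, followed at 0.076, then Kank4, Tmem178b, Hook3, Pcnx1 and Opcml at 0.088 to 0.096. The median over all compared genes was 0.303. Cadps differed from Synj1 by 0.078, Rims1 by 0.116 and Bsn by 0.129, whereas Dnm3 differed by 0.397 and Unc13a by 0.325. Among the closest to Cadps were Nlgn1 at 0.088, Rapgef6 at 0.098, Akap13 at 0.099, Tmem178b at 0.102, Kank4 at 0.105, Myrip at 0.108 and Dpysl3 at 0.109. Of the genes named here, Synj1 was nearer to Cadps, at 0.078, than any of these. Synj1 and Cadps were chosen for a shared order of these same libraries, so nothing is read from their nearness. The measure uses the same libraries for all genes, and no function is read from it.

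Other genes of the pathway were examined in 5 lists, and none of the 114 tested genes passed an adjusted p of 0.05. At an unadjusted p under 0.05, 7 were higher and 9 lower with BT-11, beside 4.04% higher and 5.05% lower over all genes. Among 34 vesicle endocytosis genes 12 had a higher and 22 a lower mean with BT-11, with a median log2 fold change of -0.06. The smallest p values were those of Epn2 (epsin 2, a clathrin adaptor) at 0.16 ± 0.0649, Ap2m1 (a subunit of the AP2 coat adaptor) at -0.16 ± 0.07 and Pacsin2 (a membrane-bending protein) at 0.16 ± 0.0716 (log2 fold change ± SE). Ap2m1 was at 712 ± 19.9 CPM in BT-11 and 787 ± 62.1 CPM in untreated rats (SD, n = 5 each).

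Of 30 priming and active zone genes 19 had a higher and 11 a lower mean, with a median of 0.03. Rimbp2, which ties RIM to calcium channels, had the smallest p of all pathway genes examined. It was at 366, 430, 386, 366 and 429 CPM in BT-11 replicates 1 to 5, against 286, 256, 379, 271 and 229 CPM in untreated replicates 1 to 5. Untreated replicate 3 alone reached the BT-11 range, and the log2 fold change was 0.47 ± 0.119 (SE), with an unadjusted p of 0.00201 and an adjusted p of 0.402 in edgeR. Doc2b, a calcium-binding protein of spontaneous and asynchronous release, was at 48.5 ± 10.7 CPM in BT-11 and 33.2 ± 8.48 CPM in untreated rats (SD, n = 5 each), with a log2 fold change of 0.54. Ppfia3, a liprin scaffold, had -0.20 ± 0.0871 (SE).

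Of 22 phosphoinositide enzyme genes 12 had a higher and 10 a lower mean, with a median of 0.01. Inpp5a, an inositol phosphatase, had a log2 fold change of 0.23, Sacm1l, a phosphatase of the endoplasmic reticulum and Golgi, -0.20, and Pip5k1c, the kinase that makes the lipid synaptojanin degrades, -0.16. Of 12 genes of dense-core vesicle cargo and processing 3 had a higher and 9 a lower mean, with a median of -0.03. Cpe, a carboxypeptidase that trims neuropeptides, was at 2465 ± 139 CPM in BT-11 and 2907 ± 260 CPM in untreated rats (SD, n = 5 each), and its log2 fold change was -0.25 ± 0.0798 (SE; adjusted p of 0.448 in edgeR). Scg3 and Ptprn, both of the granule membrane, had -0.14 and -0.16. Of 16 genes of the vesicle membrane 5 had a higher and 11 a lower mean, with a median of -0.07. Syp, the gene of synaptophysin, was at 1923 ± 142 CPM in BT-11 and 2178 ± 161 CPM in untreated rats, with a log2 fold change of -0.19. Syt2 and Syn3, at or below 8.14 CPM on average, had -0.95 and 0.69.

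Replicates 4 and 5 lay above 1 to 3 in both groups for 33 of these 114 genes and below for 4, beside 7.65% above and 5.85% below over all genes. By transcript length the 33 were 15 of 43 in the longest class, 8 of 32 in the next, 5 of 24 and 5 of 15 in the shortest. Over all genes the shares above were 15.6%, 7.17%, 4.72% and 3.09% in the same order of classes. By list they were 12 of 34 endocytosis genes, 11 of 30 priming genes, 6 of 22 phosphoinositide genes, 2 of 12 dense-core vesicle genes and 2 of 16 vesicle membrane genes. These counts are descriptions of the order that chose Synj1 and Cadps.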

How the data were processed

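Strand-specific mRNA libraries of left hippocampus were read as single-end 50-base reads, as the labels' protocols state. Bcl2fastq 2.19.1.403, STAR 2.7.9a, Partek, DESeq2 and build rn6 are named without roles, per the submitters' processing notes. Which counter, strand option and gene models were used is not given in the sources used here. Reads of overlapping or antisense genes may not be told apart. The authors deposited estimated counts per gene model (83.4% of values whole within 1e-06) and CPM, which equal those counts scaled to the library total plus 1e-04. Lengths are those in the deposited table. Whether its start positions count from 0 or 1 was not settled.

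Estimated counts were summed per symbol (799 of 13686 symbols have several lines) and rounded. Levels are CPM of library totals. BT-11 and untreated libraries were compared in R 4.3.3 by the robust quasi-likelihood test of edgeR 4.0.16, with TMM and the default filter (11771 genes kept, 1915 left out), two-sided and adjusted over all genes. All 9 members passed the filter. The step was tested on simulated counts. Alternatives used DESeq2 1.42.0, limma 3.58.1, other scalings, filters and sets of libraries. Members, lists, ratios and the naming rule (3 smallest p per list, 8 nearest patterns) were chosen with earlier results of these data known. One gene that the rule of nearest patterns named is not reported here. Reads carry no molecular identifiers. No libraries of a group agreed within sampling noise (chi-square per degree of freedom 4.38 to 31.0).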

Additional observations from a re-analysis of the deposited data

Results flagged for a closer look

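Dnm1 was at 1113 CPM in BT-11 replicate 2, far below the other 4 BT-11 libraries. The gap to the nearest of them was 0.743 of the range of the group, above the limit of 0.71 for 5 samples. It was 1 of 18 sets of 5 libraries examined, and chance gives about 1 in 20.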

How the results depend on the processing

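Across 26 other settings, the 9 log2 fold changes kept their direction and their side of the threshold in 230 of 234 values. Those that turned were Rims1 within replicates 1 to 3 (0.02), Unc13a without untreated replicates 1 and 2 (-0.05, chosen after the data were seen) and Cadps without untreated replicate 5 (0.02). Bsn passed within replicates 4 and 5 (-0.34), the 1 member called there. Synj1 and Cadps were chosen by that set of replicates, so nothing is read from this call. The cause was not tested. Over all genes edgeR called 0, DESeq2 40, edgeR within replicates 4 and 5 479, and edgeR with 1 library left out 0 to 62. With 1 library left out, 0 members were called, and values ran from -0.21 to -0.04 for Synj1, -0.20 to 0.02 for Cadps, -0.31 to -0.16 for Amph, 0.18 to 0.52 for Dnm3 and 0.12 to 0.36 for Unc13a.

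With the replicate block edgeR called 0 genes and 0 members, and 5 members had an unadjusted p under 0.05 (Amph -0.25, Bsn -0.22, Sh3gl2 -0.25, Synj1 -0.12 and Unc13a 0.30), as had 1320 of 11771 genes. Deviations of same-numbered libraries correlated at 0.15 to 0.22 for numbers 1 to 4 and at 0.04 for number 5. BT-11 replicates 2, 3 and 4 matched their own untreated number best, whereas BT-11 replicates 1 and 5 matched untreated replicates 2 and 3 best. The labels name nothing that a number shares, the numbers were not taken as pairs, and whether same-numbered libraries share a factor was not tested. Depth limits Dnm3 most, which had 195 to 537 counts in a library. Over single lines of Synj2, the difference in the log2 ratio of Synj1 to Synj2 ran from -0.47 to -0.09, beside -0.38 for their sum.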

Other observations

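Libraries differed in how often they held the extreme value of a gene. Untreated replicate 1 was the lowest of the 10 libraries for 22% of all genes, and among the members for Dnm3 and Unc13a. Untreated replicate 4 was the highest for 9.48% of all genes and for 4 members, and untreated replicate 5 for 14.6% and 2 members. BT-11 replicate 1 was the highest for 4.54% of all genes and for 0 members.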
